A study of Homo sapiens with 6 samples.

Results

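The interferon-stimulated genes are a set of 42 human genes, entered under 43 names because RIGI is also written DDX58, whose transcription is classically raised by interferon. Every probe whose single annotated gene symbol was on the list was taken, which gave 63 probes for 40 of the genes, among 18852 genes with a singly annotated probe on the array. STAT2 and USP18 had no such probe and were not analysed here. The genes were measured in OVSAYO, a clear cell ovarian cancer line, in cells that had been transfected with hairpin inhibitors of microRNAs. A hairpin inhibitor is a chemically modified RNA that pairs with a mature microRNA and blocks it.

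There were 3 cultures per group, each on 1 single-colour Illumina array, and RNA was taken 48 hours after transfection with a lipid reagent. The inhibitor group received 44 nM of a miR-30a inhibitor together with 22 nM of a miR-30d inhibitor, and the control group received 66 nM of a negative control inhibitor based on worm microRNAs. Both groups therefore carried the same total amount of transfected RNA, 66 nM, and arrays of mock-transfected cells were not analysed here. All cultures were of 1 cell line, and the labels call them biological replicates without saying what separated them, so p-values measure only the spread between these samples. In the design text of the series the reagents are named mimics, though it too describes a knockdown of miR-30a, while the label of every sample says inhibitor, and the labels were followed. Were they mimics that raise the microRNA, the meaning of each direction below would be the opposite. The comparison asks which transcripts differ when miR-30a and miR-30d are inhibited.

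Interferons are secreted proteins that bind receptors on the cell surface and activate JAK kinases. Type I and type III interferons then act through a complex that contains IRF9 and binds the interferon-stimulated response element in promoters, while interferon gamma acts through the gamma-activated site. The induced genes encode RNA sensors, proteins that block viral entry or translation, and the peptide-processing machinery of antigen presentation, and many of them keep a low level of expression without any infection. The mature miR-30a, the target of the larger part of the inhibitor mixture, is shown with its seed (bases 2 to 8) in capitals. It is taken from RefSeq, GRCh38.p14, chr6:71403595-71403616, minus strand.
hsa-miR-30a-5p: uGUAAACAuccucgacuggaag

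The promoters of the genes carried a sequence feature that the choice of genes had not used. Of the 42 genes, 34 had at least 1 entry in a RefSeq table of promoter windows (GRCh38.p14, 250 bases before to 50 bases after an annotated start), and these had 46 windows. The core of the response element, 2 copies of GAAA with any 2 bases between them, on either strand, was found in 27 of the 46 windows, or 58.7%, against 3.6% of all 35116 windows. The core of the gamma-activated site, TTCNNNGAA, which reads the same on both strands, was found in 11 of the 46, or 23.9%, against 7.7% of all windows. Windows of the same gene can overlap, as those of IFI27 and of IFI44 do, so that a site can be counted in more than 1 window. Counted by gene, the response element core was found for 23 of the 34, or 67.6%, against 4.4% of all 27305 genes. The gamma-activated site core was found for 10 of the 34, or 29.4%, against 9.4%. Matches of the first motif may overlap each other or the second motif. The response element core was found for 18 of the 26 genes with a tested probe and for 5 of the 7 genes without one. The genes without an entry are IFIT2, IFITM2, MX2, OAS2, OASL, IRF7, USP18 and TRIM22.

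The following stretches of 60 bases before the start show the response element core in capitals for ISG15, for the neighbouring genes IFIT3, IFIT1 and IFIT5, for IFITM3 and TAP1, and for IFI27, which was not detected. The stretch of IFI35 has no response element core in the searched window and shows the gamma-activated site core in capitals.
ISG15, chr1:1013362-1013421, plus strand: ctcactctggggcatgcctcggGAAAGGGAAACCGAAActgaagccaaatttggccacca
IFIT3, chr10:89327833-89327892, plus strand: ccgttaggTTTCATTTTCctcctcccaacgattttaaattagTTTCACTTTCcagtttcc
IFIT1, chr10:89392488-89392547, plus strand: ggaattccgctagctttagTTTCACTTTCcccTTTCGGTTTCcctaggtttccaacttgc
IFIT5, chr10:89414508-89414567, plus strand: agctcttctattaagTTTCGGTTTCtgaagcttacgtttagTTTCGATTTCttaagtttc
IFITM3, chr11:320870-320929, minus strand: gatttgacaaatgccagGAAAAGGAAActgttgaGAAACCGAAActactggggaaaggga
TAP1, chr6:32853801-32853860, minus strand: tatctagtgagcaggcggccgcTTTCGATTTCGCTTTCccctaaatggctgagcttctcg
IFI27, chr14:94110609-94110668, plus strand: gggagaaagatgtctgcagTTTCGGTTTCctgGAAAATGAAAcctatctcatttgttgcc
IFI35, chr17:43006724-43006783, plus strand: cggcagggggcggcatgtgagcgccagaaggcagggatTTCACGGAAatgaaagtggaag

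ISG15 and IFIT5 both hold the motif more than once in these stretches, and so do IFIT3 and IFIT1, although the differences between the groups did not have the same sign in these 4 genes. The matches are descriptions of the letters in these windows and say nothing of binding in these cells.

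The 6 arrays were of like quality. Their mean raw signals ran from 222.6 to 258.5, and 43.4% to 45.2% of the 48803 probes were detected, that is, had a detection score above 0.95. The markers of the line were present: the 7 epithelial genes on the list, among them EPCAM, KRT8 and CDH1, and 5 clear cell carcinoma genes, among them PAX8 and NAPSA, had tested probes. Leukocytes, which have high levels of these genes, were looked for through 10 markers. Of these, CD68, CD14, CD79A, MS4A1 and LAPTM5 had a tested probe, while no array detected PTPRC, CD3D, LYZ or CD53, and CD3E was detected on 2 arrays. CD68 was the brightest, with raw signals of up to 423.3 on the control and 401.6 on the inhibitor arrays. The summed raw signal of the 24 leukocyte probes was 1590.4 to 1739.9 on the control arrays and 1526.2 to 1716.6 on the inhibitor arrays. Only 7 of these probes were tested, so the sum includes the background of the others and does not measure leukocyte content. Control replicate 2 and inhibitor replicate 3 lay apart from the rest of their groups: on the first principal component, which held 42.1% of the variance, they lay at −15.72 and −9.11, the other controls at −4.12 and −1.67 and the other inhibitor arrays at 17.47 and 13.16. Values without both arrays are shown for all tested members in the plot of differences, and are given in the text for the members they moved most.

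Many of the classical interferon-induced genes were at the array's background in OVSAYO in both groups, while others were clearly expressed. Of the 63 probes, 30 were detected on all 6 arrays and 23 on none. Of the 40 genes, 26 had a probe detected on all arrays and 9 had no probe detected on any. These 9 were IFIT2, IFI16, IFI27, IFI44, MX2, OASL, RSAD2, SAMD9 and PSMB9. They include IFI27 and RSAD2, the latter encoding the antiviral enzyme viperin, which rank among the most strongly interferon-induced genes in many human cells. The IFI27 probe had raw signals of 39.8 to 47.7 and the RSAD2 probe of 39.1 to 44.2. MX1, a dynamin-like GTPase that blocks viral replication, was detected on 1 control and 1 inhibitor array, with raw signals of 46.2, 50.4 and 60.1 in the controls and 48.8, 44.3 and 49.1 with the inhibitor. A probe at background shows that its signal could not be told from that of negative controls, not that the transcript is absent.

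**Figure D1:**
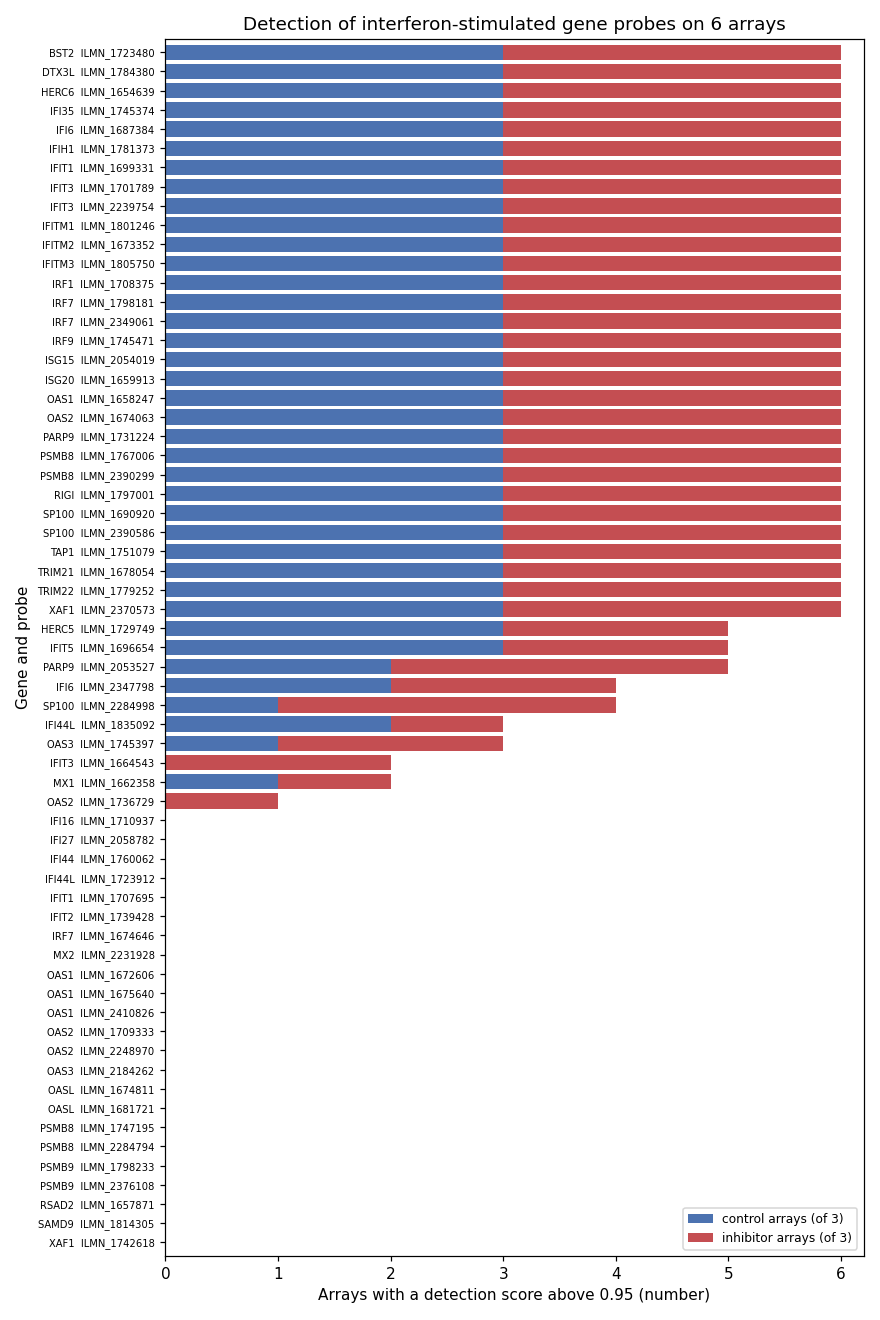
Number of arrays, of 3 control (blue) and 3 inhibitor (red), on which each of the 63 probes had a detection score above 0.95 (horizontal axis), with 1 bar per probe. The upper 30 probes were detected on all 6 arrays, and the lowest 23, which include IFI27, IFI44, MX2 and RSAD2, on none.

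Probes detected on at least 3 of the 6 arrays entered the test, which left 37 probes of 30 genes. Since 26 probes did not pass this filter, the counts below are about these 37 and not about all members. Values are log2 signals after background correction and quantile normalization, and a difference is the inhibitor mean minus the control mean on that scale, so that 0.34 is a ratio of about 1.26.

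No interferon-stimulated gene passed the test between inhibitor and control arrays. The probe of ISG15 had the lowest difference and 1 of the 2 tested probes of IFIT3 the highest, a contrast that was known when the genes were chosen and has no independent support here. The differences of the 37 probes ran from −0.44 for ISG15 to 0.34 for IFIT3, with 21 above 0 and 16 below, and their median was 0.01 beside 0.01 for all 21928 tested probes. Without control replicate 2 and inhibitor replicate 3 the median of the members was 0.05. Of the 37, 0 had a limma adjusted p under 0.05, the lowest being 0.44, and over all probes the share was 0%. At an unadjusted p under 0.05 in limma there were 5 of the 37, 3 higher and 2 lower, beside 10.0% of all tested probes (4.83% higher and 5.19% lower). In 8 of the 37 probes all arrays of 1 group lay above all of the other, 4 higher and 4 lower, beside 15.5% of all tested probes (8.40% higher and 7.12% lower). The shares of the members are thus close to those of the whole array. The median absolute difference was 0.10 among the members and 0.08 among all tested probes, and the median standard error was 0.10 and 0.09.

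The counts depended on single arrays. Without inhibitor replicate 3 there were 10 member probes higher and 1 lower at an unadjusted p under 0.05 in limma, beside 9.55% higher and 9.84% lower among all probes. The 10 were probes of ISG20, SP100, DTX3L, TAP1, IFITM3, IFI35, OAS2 and IFIT3 and both of PSMB8, with differences from 0.20 to 0.41, and the lowest limma adjusted p was 0.1. Without both control replicate 2 and inhibitor replicate 3 there were 6 higher and 2 lower, beside 7.34% and 8.19% of all probes. Without control replicate 1 there were 2 higher and 1 lower, beside 3.35% and 3.53% of all probes. In none of these fits did a member pass an adjusted p of 0.05.

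**Figure D2:**
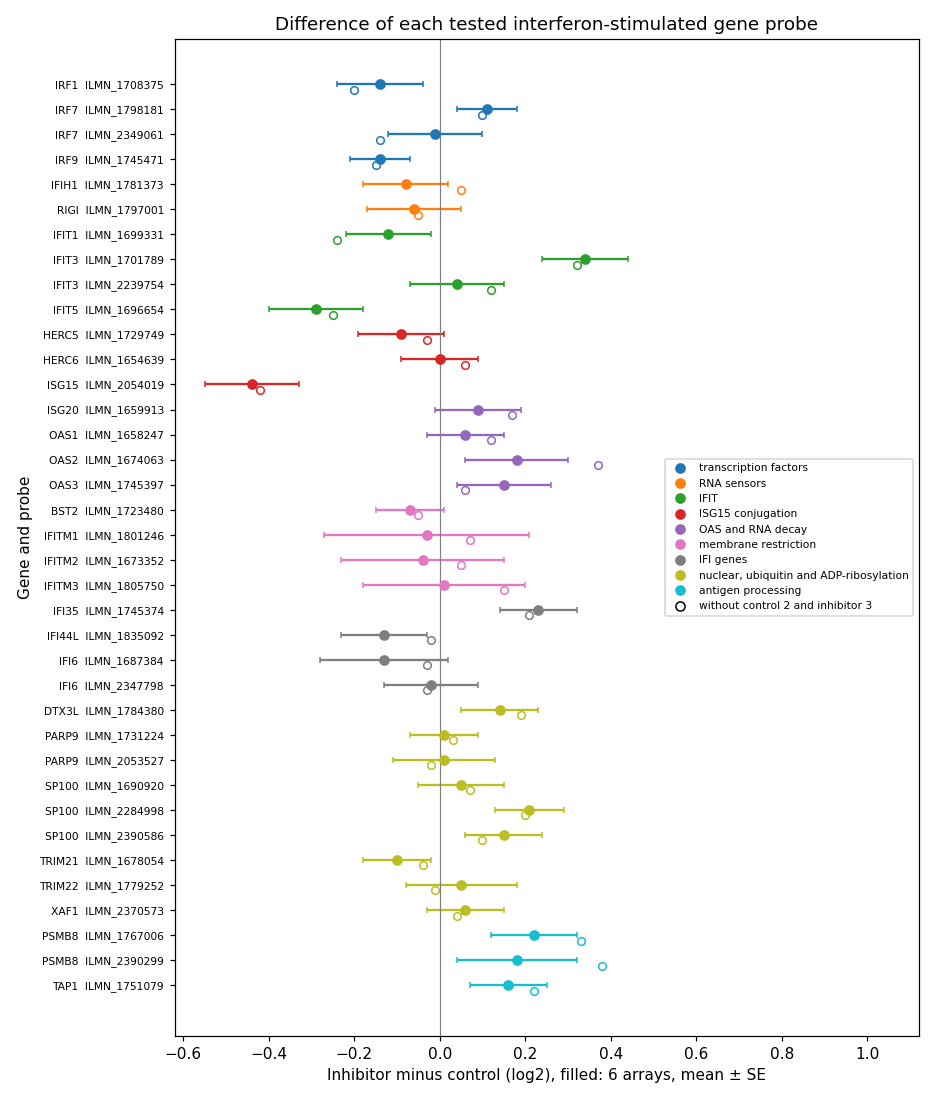
Inhibitor minus control (horizontal axis, log2) for each of the 37 tested probes, coloured by the role of the gene. Filled points are means over 6 arrays with bars of 1 SE, and open circles are the values without control replicate 2 and inhibitor replicate 3. ISG15 lies farthest to the left at −0.44 and 1 probe of IFIT3 farthest to the right at 0.34.

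ISG15 encodes a small ubiquitin-like protein that is joined to other proteins and is also secreted. Its probe (ILMN_2054019) had log2 values of 7.48, 7.42 and 7.06 in the controls and 6.92, 6.77 and 6.95 with the inhibitor. All 3 inhibitor values lay below the lowest control, replicate 3, which was closer to the inhibitor arrays than to the other controls. The means were 7.32 ± 0.23 (SD, n = 3) and 6.88 ± 0.10, a difference of −0.44 ± 0.11 (SE), or 0.738 times the control, with a 95% interval from −0.69 to −0.19 and a limma adjusted p of 0.44 (unadjusted p 0.00259). The separation depended on the normalization: the raw signals were 186.9, 196.5 and 156.3 in the controls and 157.2, 129.8 and 159.8 with the inhibitor, so that the third control lay below 2 of the inhibitor arrays. In the authors' normalized table the same probe had 186.9, 180.7 and 146.7 against 136.3, 125.3 and 138.4, and there the groups did not overlap. The probe was carried by 24 to 36 beads per array, and the standard error over its beads was 6.5% to 8.1% of the signal, beside a median of 3.73% for the tested member probes. The difference was −0.42 without control replicate 2 and inhibitor replicate 3 and stayed below 0 under all 17 alternatives run, from −0.57 to −0.31.

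The other genes of ISG15 conjugation had differences closer to 0, and whether they differ from that of ISG15 was not tested. HERC5, the main ligase that joins ISG15 to proteins in human cells, had −0.09 ± 0.10 (SE). It was detected on 5 of the 6 arrays, with log2 values of 4.81, 4.65 and 4.61 in the controls and 4.78, 4.57 and 4.46 with the inhibitor, which overlapped, and it was −0.03 without control replicate 2 and inhibitor replicate 3. HERC6, the ISG15 ligase of the mouse, had 0.00 ± 0.09, with a 95% interval from −0.19 to 0.19. The activating enzyme UBA7 and the conjugating enzyme UBE2L6, which are not members, had −0.17 ± 0.09 and −0.20 ± 0.11, the latter being −0.35 without those arrays.

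The IFIT proteins bind viral RNA and block its translation, and their genes lie side by side on chromosome 10 in the order IFIT2, IFIT3, IFIT1 and IFIT5, with IFIT1B between IFIT3 and IFIT1. The differences of these neighbours were not all of the same sign. IFIT3, which stabilizes IFIT1 on RNA, had log2 values of 5.23, 4.98 and 5.31 in the controls and 5.57, 5.60 and 5.35 with the inhibitor at its probe ILMN_1701789. The groups did not overlap, although inhibitor replicate 3 lay just above the highest control. The difference was 0.34 ± 0.10 (SE), with a 95% interval from 0.11 to 0.56 and a limma adjusted p of 0.44 (unadjusted p 0.00826). It was 0.18 with an offset of 50, 0.18 in the authors' normalized table and 0.20 without background correction, and ranged from 0.18 to 0.41 over the 17 alternatives. Raw signals were 63.1, 60.6 and 65.7 against 77.7, 71.1 and 67.3. The second tested IFIT3 probe, ILMN_2239754, had 4.94, 4.77 and 4.78 against 4.89, 5.07 and 4.65, with overlapping groups and a difference of 0.04 ± 0.11, which was −0.06 without inhibitor replicate 2. With control replicate 2 and inhibitor replicate 3 left out it was 0.12. The probes are annotated to different transcripts of the gene, and probe sequences were not used here to tell what each one covers.

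IFIT5, which binds RNA with a 5′ triphosphate, had log2 values of 5.08, 4.85 and 4.68 in the controls and 4.64, 4.63 and 4.47 with the inhibitor. All inhibitor values were below all controls, by a narrow margin, and the probe was detected on 3 control and 2 inhibitor arrays. The control group, where it is high, was enough to pass it through the filter, and the inhibitor group was not. It therefore adds no support to the counts of lower and of non-overlapping probes above. The difference was −0.29 ± 0.11 (SE), with a limma adjusted p of 0.459 (unadjusted p 0.02), and −0.25 without control replicate 2 and inhibitor replicate 3. It was −0.18 without control replicate 1, −0.13 with an offset of 50, −0.14 in the authors' normalized table and −0.15 without background correction. IFIT1, which recognizes RNA caps that lack a methyl group, had 5.32, 4.98 and 5.35 in the controls and 5.04, 5.15 and 5.09 with the inhibitor. Its difference of −0.12 ± 0.10 was smaller than the spread of the controls, since control replicate 2 lay below all inhibitor arrays. Without control replicate 2 and inhibitor replicate 3 it was −0.24, with a limma adjusted p of 0.263. A further IFIT1 probe annotated to the same transcript, ILMN_1707695, was detected on no array. IFIT2 was not detected, with raw signals of 45.4 to 52.2.

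**Figure D3:**
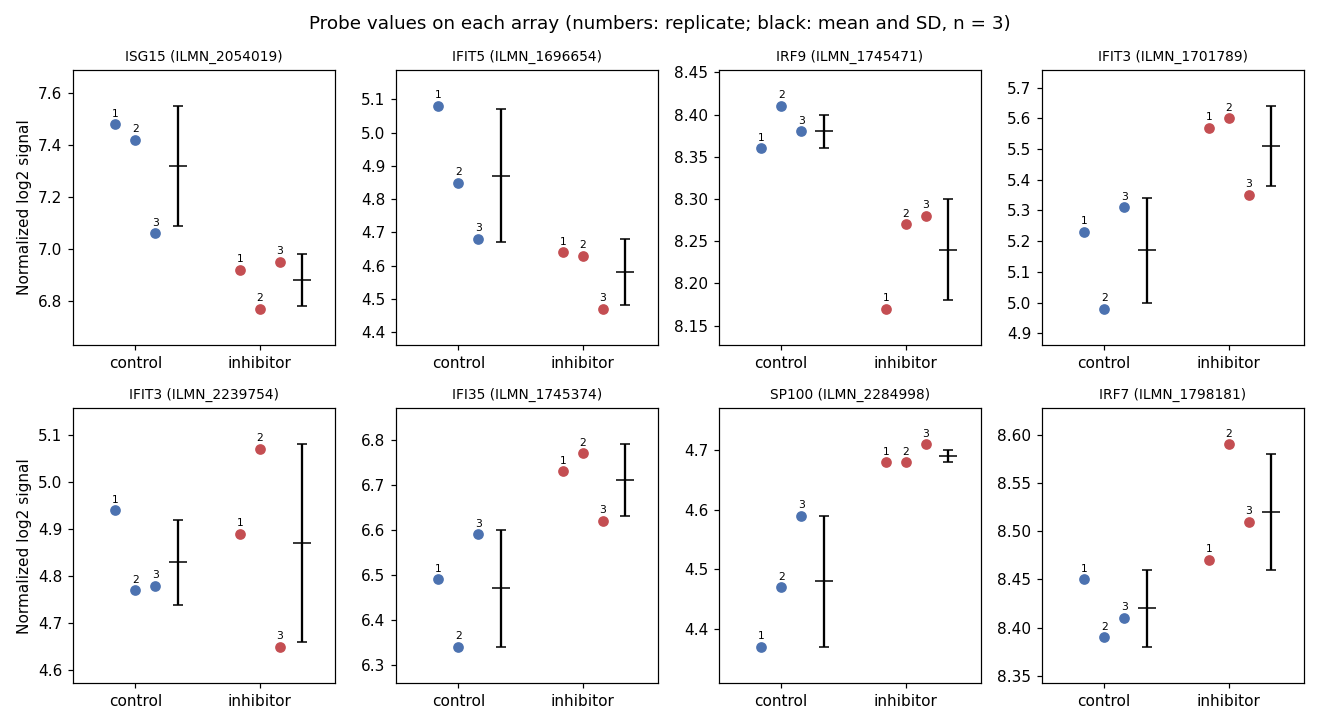
Normalized log2 signal (vertical axis, a scale of its own in each panel) of 8 probes on the 3 control (blue) and 3 inhibitor (red) arrays, numbered by replicate, with the mean and SD in black. ISG15, IFIT5 and IRF9 are lower on all inhibitor arrays, 1 IFIT3 probe, IFI35, SP100 and 1 IRF7 probe are higher on all, and the second IFIT3 probe overlaps.

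Among the transcription factors, IRF9, the DNA-binding subunit of the interferon-activated complex, had log2 values of 8.36, 8.41 and 8.38 in the controls and 8.17, 8.27 and 8.28 with the inhibitor. The groups did not overlap, whereas the raw signals did, at 319.0, 361.4 and 349.5 against 334.6, 325.7 and 369.2. The difference was −0.14 ± 0.07 (SE), with a limma adjusted p of 0.536. Its size depended on scaling: it was −0.00 with median centring, which moved the median of all probes to 0.10. IRF1, a factor induced above all by interferon gamma, had 7.74, 7.66 and 7.82 against 7.42, 7.75 and 7.62, with overlapping groups and a difference of −0.14 ± 0.10. IRF7, which drives the later wave of interferon genes, was measured by 2 tested probes with differences of opposite sign and overlapping intervals. ILMN_1798181 had 8.45, 8.39 and 8.41 against 8.47, 8.59 and 8.51, without overlap and with a difference of 0.11 ± 0.07. Its raw signals, 339.7 to 356.8 against 403.3 to 427.1, did not overlap either. The mean raw signal of all probes was also higher on the inhibitor arrays. ILMN_2349061, annotated to the same transcript, had 5.54, 5.35 and 5.41 against 5.16, 5.51 and 5.59, and its difference of −0.01 ± 0.11 was 0.07 with median centring and −0.14 without control replicate 2 and inhibitor replicate 3. Without inhibitor replicate 1 it was 0.12. The RNA sensors RIGI and IFIH1, which recognize viral RNA in the cytosol and start interferon production, had −0.06 ± 0.11 and −0.08 ± 0.10, the latter being 0.05 without control replicate 2 and inhibitor replicate 3. RIGI values were 5.01, 5.01 and 4.95 in the controls and 5.18, 4.67 and 4.92 with the inhibitor, so that the inhibitor arrays lay on both sides of the controls.

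The OAS enzymes make short oligoadenylates that activate an RNA-degrading enzyme, RNase L. The 4 tested probes of this group and of the exonuclease ISG20 all had differences above 0, from 0.06 to 0.18, with 0 of the 4 at an unadjusted limma p under 0.05. OAS2 had log2 values of 5.00, 5.06 and 4.92 in the controls and 5.36, 5.29 and 4.89 with the inhibitor at ILMN_1674063. Another OAS2 probe annotated to the same transcript, ILMN_1709333, was detected on no array. Inhibitor replicates 1 and 2 were above every control and inhibitor replicate 3 below every one, which gave 0.18 ± 0.12 (SE) over all arrays and 0.37 without control replicate 2 and inhibitor replicate 3. Among all tested probes 51.7% had a difference above 0. OAS1 had 0.06 ± 0.09, OAS3, detected on 3 of the 6 arrays, 0.15 ± 0.11, and ISG20 0.09 ± 0.10. Without control replicate 2 and inhibitor replicate 3 the differences were 0.12 for OAS1, 0.06 for OAS3 and 0.17 for ISG20. ISG20 showed the same split as OAS2, with 8.86, 8.76 and 8.83 against 8.94, 9.10 and 8.69. OASL, a relative that does not make oligoadenylates, was not detected, and neither were MX2, RSAD2 or SAMD9, so that none of the 4 genes MX1, MX2, RSAD2 and SAMD9 entered the test.

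The membrane proteins that hold back viruses did not differ between the groups by more than the arrays within a group did. IFITM1, IFITM2 and IFITM3, which hinder the fusion of viral with cellular membranes and lie next to each other on chromosome 11, are described in full after their values were seen. IFITM1 had log2 values of 8.20, 7.59 and 8.22 in the controls and 8.24, 8.32 and 7.37 with the inhibitor. IFITM2 had 11.48, 11.04 and 11.53 against 11.55, 11.57 and 10.83. IFITM3 had 12.13, 11.77 and 12.15 against 12.29, 12.29 and 11.52.

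In all 3 genes control replicate 2 and inhibitor replicate 3 were the lowest arrays of their groups, with −0.62 and −0.91 for IFITM1 relative to the mean of the other arrays of the group. The raw signals had the same order: the raw IFITM3 signal was 3437.6 and 3209.5 on these arrays and 4043.2 to 5372.2 on the others. The standard error over the beads of the IFITM3 probe was 1.9% to 2.8% of its signal. The differences between the groups were −0.03 ± 0.24 (SE) for IFITM1, −0.04 ± 0.19 for IFITM2 and 0.01 ± 0.19 for IFITM3, and the 95% interval for IFITM3 ran from −0.40 to 0.43. Without the same arrays they were 0.07, 0.05 and 0.15. IFITM genes are close paralogs, and whether the probes tell them apart was not checked. BST2, or tetherin, which holds budding virus on the cell surface, had −0.07 ± 0.08, with 4.74, 4.84 and 4.89 against 4.69, 4.85 and 4.71.

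Control replicate 2 was the lowest control and inhibitor replicate 3 the lowest inhibitor array in 13 of the 37 member probes, beside 19.2% of all tested probes. The 13 were probes of IFITM1, IFITM2, IFITM3, ISG20, DTX3L, PARP9, SP100, TAP1 and IFI35, with 2 each of IFIT3 and IFI6. IFI6, a small mitochondrial protein that protects cells from apoptosis, had 7.50, 7.21 and 7.50 in the controls and 7.47, 7.48 and 6.86 with the inhibitor at ILMN_1687384. The lowest value was again that of inhibitor replicate 3, and the group difference was −0.13 ± 0.15 (SE), or −0.03 without both arrays. The median over the 37 probes relative to the control mean was 0.02, −0.04 and 0.02 on the control arrays and 0.08, 0.07 and −0.11 on the inhibitor arrays, where the median of all probes lay between 0.00 and 0.01. The part of these arrays in the group differences was not tested beyond leaving them out.

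**Figure D4:**
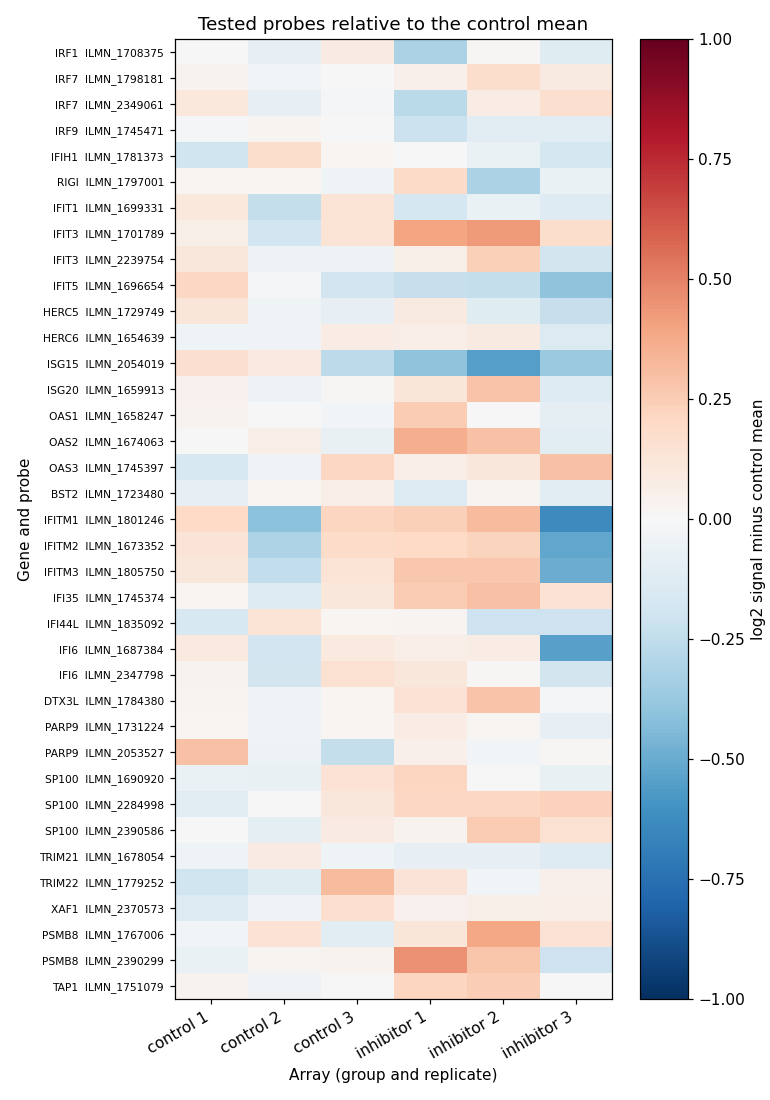
Log2 signal minus the mean of the 3 controls (colour scale from −1 to 1) for the 37 tested probes (rows) on the 6 arrays (columns). ISG15 is blue on the 3 inhibitor arrays and paler blue on control replicate 3. IFIT3 ILMN_1701789 is red on the inhibitor arrays and faintly red on control replicates 1 and 3. The IFITM rows are blue on control replicate 2 and inhibitor replicate 3 alone.

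Of the further IFI genes, IFI35, a leucine zipper protein that is released as an inflammatory signal, was higher on every inhibitor array. Its log2 values were 6.49, 6.34 and 6.59 in the controls and 6.73, 6.77 and 6.62 with the inhibitor, with raw signals of 108.9, 108.5 and 120.4 against 141.3, 130.1 and 132.3 that did not overlap either. The difference was 0.23 ± 0.09 (SE), with a limma adjusted p of 0.463 (unadjusted p 0.0243), and 0.21 without control replicate 2 and inhibitor replicate 3. IFI44L had 1 tested probe, detected on 3 of the 6 arrays, with a difference of −0.13 ± 0.10 that was −0.02 without those arrays. IFI16, a sensor of DNA, as well as IFI27 and IFI44, were not detected.

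The nuclear and ubiquitin-related genes had 8 probes above 0 and 1 below, with 1 at an unadjusted limma p under 0.05, beside 51.7% of all tested probes above 0 and 10.0% at that threshold. SP100, a component of PML nuclear bodies, was tested by 3 probes, with differences of 0.05, 0.15 and 0.21. The probe with the largest of these, ILMN_2284998, had log2 values of 4.37, 4.47 and 4.59 in the controls and 4.68, 4.68 and 4.71 with the inhibitor, without overlap. Its difference was 0.21 ± 0.08 (SE) with a limma adjusted p of 0.462. The raw signals, 46.8, 50.7 and 50.4 against 53.5, 48.6 and 51.2, overlapped. This probe was detected on 1 of 3 control arrays, so that its control values lie at the detection limit. It entered the test only through the inhibitor group, where it is high, and so adds no support to the counts of higher and of non-overlapping probes above. TRIM21, a ubiquitin ligase that binds antibodies in the cytosol, had 6.42, 6.54 and 6.42 against 6.38, 6.38 and 6.33, without overlap. Its raw signals, 105.3, 119.9 and 109.7 against 115.9, 104.9 and 111.8, overlapped. The TRIM21 difference of −0.10 ± 0.08 was 0.02 with median centring and −0.04 without control replicate 2 and inhibitor replicate 3. PARP9 and DTX3L, partners in 1 complex of ADP-ribosyl transferase and ubiquitin ligase, are neighbours on chromosome 3. Their differences were 0.01 for both PARP9 probes and 0.14 ± 0.09 for DTX3L. TRIM22, a ligase with antiviral activity, had 0.05 ± 0.13, or −0.01 without those arrays, and XAF1, which counters the apoptosis inhibitor XIAP, had 0.06 ± 0.09.

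The antigen-processing genes PSMB8, an immunoproteasome subunit, and TAP1, the transporter that brings peptides into the endoplasmic reticulum, had 3 tested probes with differences from 0.16 to 0.22, and 0 of the 3 had an unadjusted limma p under 0.05. PSMB8 had 4.71, 4.88 and 4.62 in the controls and 4.86, 5.12 and 4.88 with the inhibitor at ILMN_1767006. These groups overlapped, with a difference of 0.22 ± 0.10 (SE) and a limma adjusted p of 0.497. Without control replicate 2 and inhibitor replicate 3 the difference was 0.33, with a limma adjusted p of 0.244. It was 0.10 with an offset of 50 and 0.10 in the authors' normalized table. The second tested PSMB8 probe, ILMN_2390299, had 5.77, 5.86 and 5.87 against 6.29, 6.11 and 5.63, where inhibitor replicate 3 alone lay below the controls. Its difference was 0.18 ± 0.14 over all arrays and 0.38 without control replicate 2 and inhibitor replicate 3. PSMB8 probes ILMN_1747195 and ILMN_2284794, annotated to the same transcripts as the first and the second tested probe, were detected on no array. TAP1, picked after its values were seen, had 10.72, 10.65 and 10.68 against 10.90, 10.93 and 10.69, with inhibitor replicate 3 within the range of the controls. Its difference was 0.16 ± 0.09, and 0.22 without those arrays. Raw TAP1 signals were 1525.5, 1590.5 and 1610.6 against 2085.6, 1949.8 and 1846.7 and did not overlap. The mean raw signal of all probes was also higher on the inhibitor arrays, at 240.3 to 258.5 against 222.6 to 239.9. In the authors' normalized table the TAP1 value of inhibitor replicate 3, 1492.4, lay within the controls, 1449.4 to 1525.5. PSMB9, the neighbour of TAP1 on chromosome 6, was not detected by either of its 2 probes.

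The rest of the interferon pathway was read through 57 further genes, of which 54 had a probe and 43 a tested one. Of their 59 tested probes 28 were above 0 and 31 below, 0 had a limma adjusted p under 0.05, and 5 had an unadjusted p under 0.05, of which 3 were above 0, beside 10.0% of all tested probes. Among the ligands, IFNA1, IFNB1, IFNG, IFNK and the 3 interferon lambda genes were not detected on any array, and IFNW1 had 1 tested probe, with −0.14 ± 0.09 (SE). IFNE, the interferon epsilon of the female reproductive tract, was detected on all arrays by 2 probes, with differences of 0.22 ± 0.10 (SE) and 0.13 ± 0.08. Its raw signals at ILMN_2097997 were 208.0, 233.2 and 211.3 in the controls and 266.2, 226.2 and 277.6 with the inhibitor, which overlapped. At ILMN_1734781 the log2 values were 6.77, 6.82 and 6.70 against 7.18, 6.84 and 6.93. These did not overlap, with a limma adjusted p of 0.488 (unadjusted p 0.0436). The raw signals of that probe, 125.7, 139.8 and 127.9 against 181.8, 135.4 and 157.2, did overlap.

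The receptor chains IFNAR1, IFNAR2, IFNGR1, IFNGR2, IFNLR1 and IL10RB all had tested probes, with differences from −0.04 to 0.18. Without control replicate 2 and inhibitor replicate 3 the difference of IL10RB ILMN_1767360 was 0.34, against 0.17 over all arrays. The kinases JAK1, JAK2 and TYK2 had 0.13, 0.04 and 0.04. The sensor and adaptor genes had 7 probes above 0 and 10 below, and the feedback genes 5 above and 7 below. The probes of these groups at an unadjusted limma p under 0.05 were the adaptor MYD88 with −0.21 ± 0.09, the kinase IKBKE with 0.22 ± 0.09 and the JAK inhibitor SOCS1 with 0.29 ± 0.12. All had a limma adjusted p between 0.463 and 0.481. SOCS3 had −0.26 ± 0.18 at ILMN_2156250, or −0.58 without control replicate 2 and inhibitor replicate 3, and −0.05 ± 0.10 at ILMN_1781001. The class I presentation genes beside TAP1 and PSMB8 had 5 probes above 0 and 11 below. The proteasome activator gene PSME1 had −0.21 ± 0.07 at 1 probe and 0.04 ± 0.09 at the other, or −0.04 without those arrays. PSME2 had −0.26 ± 0.12, opposite in sign to PSMB8 and TAP1, and −0.37 without them. PSMB10, the third immunoproteasome subunit, had −0.18 ± 0.09.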

How the data were processed

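Total RNA of 6 OVSAYO cultures was measured on 1 single-colour Illumina array each. The authors deposited, per array, the mean bead intensity of 48803 probes on a linear scale, its SD over beads, the number of beads, and a detection score, a fraction from 0 to 1 that is high where signal exceeds background. BeadStudio is the tool named per the submitters' processing notes, without a version, and these values show neither background subtraction nor normalization. The authors' deposited series table holds an intensity per probe that follows the distribution of control replicate 1, with a median of 48.2 in each column, and how it was normalized is not stated. Probe numbers were matched to probe names through the order of signals over the 6 arrays, which gave 1 match for each of the 48803 probes. In control replicate 1 both tables held exactly the same value, with no tolerance, at 48803 probes.

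Gene symbols came from the platform annotation: 28098 probes had 1 symbol, 13 several and 20692 none here. Signals were corrected and normalized with neqc (limma 3.58.1, R 4.3.3, offset 16). The 21928 probes whose detection score exceeded 0.95 on 3 or more of the 6 arrays were kept. Each probe was tested separately with lmFit and eBayes, two-sided, and p-values were adjusted over all 21928 (Benjamini-Hochberg, threshold 0.05). Levels of different probes were not compared.

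The members, gene lists and tests were chosen with earlier results of these data known. Values on every array are given for ISG15, IFIT3, each member probe with an unadjusted p under 0.05 or groups that do not overlap, and members whose probes differ in sign. The member with the largest absolute difference of each role group is named, and other genes named were picked with their values in view. The alternatives covered background correction, offset, normalization, the series table, detection filters, the estimate of spread, array weights, Welch's test, the replicate number as a block and arrays left out. The planned normexp correction with an offset of 50 is the same computation as neqc with that offset and was run once. In simulated data for the same comparison, with 21928 probes of which 50 were changed at each fold, 24% of those changed 1.25-fold passed and 98% of those changed 1.5-fold. Changes reached 4-fold, and 13 unchanged probes passed as well. The simulated noise was independent between probes and held no shift shared by a whole array, such as that of control replicate 2 and inhibitor replicate 3. These shares therefore need not hold for the real arrays. Arrays have no read depth, and their number limits the precision. Figures were drawn with matplotlib 3.10.9.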

Additional observations from a re-analysis of the deposited data

How the results depend on the processing

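The number of member probes and of all probes past an adjusted p of 0.05 was 0 under each of the 17 alternatives run, and also 0 with each array left out. The 3 member probes higher at an unadjusted p under 0.05 were 8 with median centring, 8 with array weights, 0 with Welch's test and 6 without both control replicate 2 and inhibitor replicate 3, and they ranged from 2 to 10 with 1 array left out, 10 being the value without inhibitor replicate 3. The 2 lower ones were 1 when detection on all 6 arrays was required, which removes IFIT5, 1 with Welch's test, and 1 to 3 with 1 array left out, 1 being the value without control replicate 1 and without inhibitor replicate 3. The median over the member probes was 0.09 with median centring, where the median of all probes was 0.10, and −0.03 to 0.07 with 1 array left out. At the unadjusted threshold median centring gave 4099 higher and 248 lower probes over the whole array, against 1060 and 1139, array weights gave 3576 in all and Welch's test 1408, against 2199. Without inhibitor replicate 3 there were 4251, and with the other single arrays left out 1310 to 2025.

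Of the 14 probes named by the rule, 10 kept their sign under all 17 alternatives, or all that tested them. IRF7 ILMN_2349061 was 0.07 with median centring, and −0.10 to 0.12 with 1 array left out, being above 0 without control replicate 1 (0.04) and without inhibitor replicate 1. TRIM21 was 0.02 with median centring, IFIT3 ILMN_2239754 −0.06 to 0.15 with 1 array left out, the lowest without inhibitor replicate 2, and IFIH1 −0.18 to 0.00 with 1 array left out, the highest without control replicate 2, and 0.05 without both control replicate 2 and inhibitor replicate 3. Their causes were not tested. The labels do not say whether cultures of the same replicate number were paired. Deviations of the same number correlated across probes at 0.089, −0.258 and −0.213, which cannot settle how the cultures were set up. Other ways of matching control to inhibitor arrays were not tested. With the replicate block 0 probes passed an adjusted p of 0.05, and 4 member probes were higher and 2 lower at the unadjusted threshold, beside 815 and 899 of all 21928 probes, with a median of 0.01. Signal over background limits the measurement, as 26 of 63 member probes were left out as dim.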

Other observations

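Some dim probes of members were detected on arrays of 1 group alone, too few for the test. The third IFIT3 probe, ILMN_1664543, was detected on 2 inhibitor and 0 control arrays, with raw signals of 45.7, 48.9 and 49.0 in the controls and 50.8, 47.1 and 41.8 with the inhibitor, which overlapped. The OAS2 probe ILMN_1736729 was detected on 1 inhibitor and 0 control arrays, with raw signals of 46.5 to 52.0.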
